A study of Homo sapiens with 60 samples.

Results

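The cytosolic sulfotransferases are the SULT enzymes that conjugate drugs, hormones and dietary phenols in the cell interior. The 7 members described here, SULT1A1, SULT1A2, SULT1A3, SULT1B1, SULT1C2, SULT1E1 and SULT2A1, were chosen by gene symbol from 60675 genes in the expression table. All 7 members passed the filter on low counts and were among the 16284 genes tested.

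The libraries hold messenger RNA of HepG2, a line derived from a human hepatocellular carcinoma and therefore 1 transformed cell background. Cells had been exposed for 24 h to 1 of 8 herbal extracts at 20, 100 or 500 µg/mL, called Low, Medium and High, or to DMSO alone as vehicle. Ethanol extracts (70%) were made from single herbs, namely Glycyrrhizae Radix (licorice root), Poria Cocos, Atractylodis Rhizoma, Panax Ginseng, Paeoniae Radix and Angelicae Gigantis Radix, and water extracts from the formulas Sibjeondaebo-tang and Palmul-tang. Each dose had 3 libraries for Glycyrrhizae Radix, Poria Cocos, Atractylodis Rhizoma, Panax Ginseng and Sibjeondaebo-tang, 2 for Palmul-tang, and 1 for Angelicae Gigantis Radix and Paeoniae Radix, and the vehicle had 3. The vehicle is 0.1% DMSO in the sample labels and 2% in the series text. The labels do not state the DMSO content of the extract-treated cultures, nor whether replicates were separate cultures, so the p-values may reflect technical spread between libraries alone. Each extract carries a set code in the labels (8 for both formulas, 9 for Poria Cocos and Atractylodis Rhizoma, 10 for Glycyrrhizae Radix and Panax Ginseng, 11 for the remaining pair), and the vehicle carries its own code, C1. What the code marks is not stated, so it cannot be told apart from the treatment in any comparison with vehicle, whereas High, Medium and Low of 1 extract share a code.

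A sulfotransferase moves a sulfonate group from the donor PAPS (3′-phosphoadenosine 5′-phosphosulfate) onto a hydroxyl or amine of a small molecule. The product is more water soluble and usually inactive at the receptor its parent acted on, although some sulfates, such as those of N-hydroxy arylamines, are reactive. SULT1A enzymes take phenols, SULT1E1 takes estrogens, and SULT2A1 takes hydroxysteroids and bile acids. Liver is a main site of this conjugation, and several SULT genes are controlled there by nuclear receptors.

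Total counts per library ran from 19057230 to 33233215. Mitochondrial transcripts made up 14.68% to 24.76% of counts in extract-treated libraries and 13.35% to 15.24% in vehicle libraries. Hepatocyte lineage markers were abundant, with medians over all 60 libraries of 9269 CPM (a count as a share of its library, on the usual scale) for ALB, 13050 CPM for AFP and 19530 CPM for APOB. Of markers of other lineages, PTPRC was at 0 counts in every library, KDR, DCN and COL1A2 had at most 1 count, and LUM and KRT7 at most 2. COL1A1 and CDH5 had at most 15 and 12 counts, VWF 36, PECAM1 70 and CD14 133, and SOX9, KRT19, EPCAM, CD68, LYZ and PDGFRB reached higher counts. In RNA from whole cultures, fewer cells and less RNA per cell cannot be told apart, and CPM values are shares of each library, scaled between libraries by the TMM method.

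Divided by exonic length, so that genes can be compared, SULT2A1 had the highest level. Its median over the 60 libraries was 63.7 CPM per kb, followed by SULT1A3 at 18.2, SULT1A2 at 11.6, SULT1A1 at 8.79, SULT1C2 at 0.937, SULT1E1 at 0.499 and SULT1B1 at 0.0631 CPM per kb. In vehicle libraries SULT1A2 averaged 11.6 ± 0.244 CPM per kb and SULT1A3 averaged 11.2 ± 1.40 CPM per kb (SD, n = 3 each), so these neighbours in the order did not differ beyond their spread. SULT1A1 averaged 8.93 ± 0.248 CPM per kb in vehicle, below both. The order of all 7 was the same when the longest transcript replaced the union of exons as the length, although the median of SULT1A3 then became 35.1 CPM per kb.

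**Figure D1:**
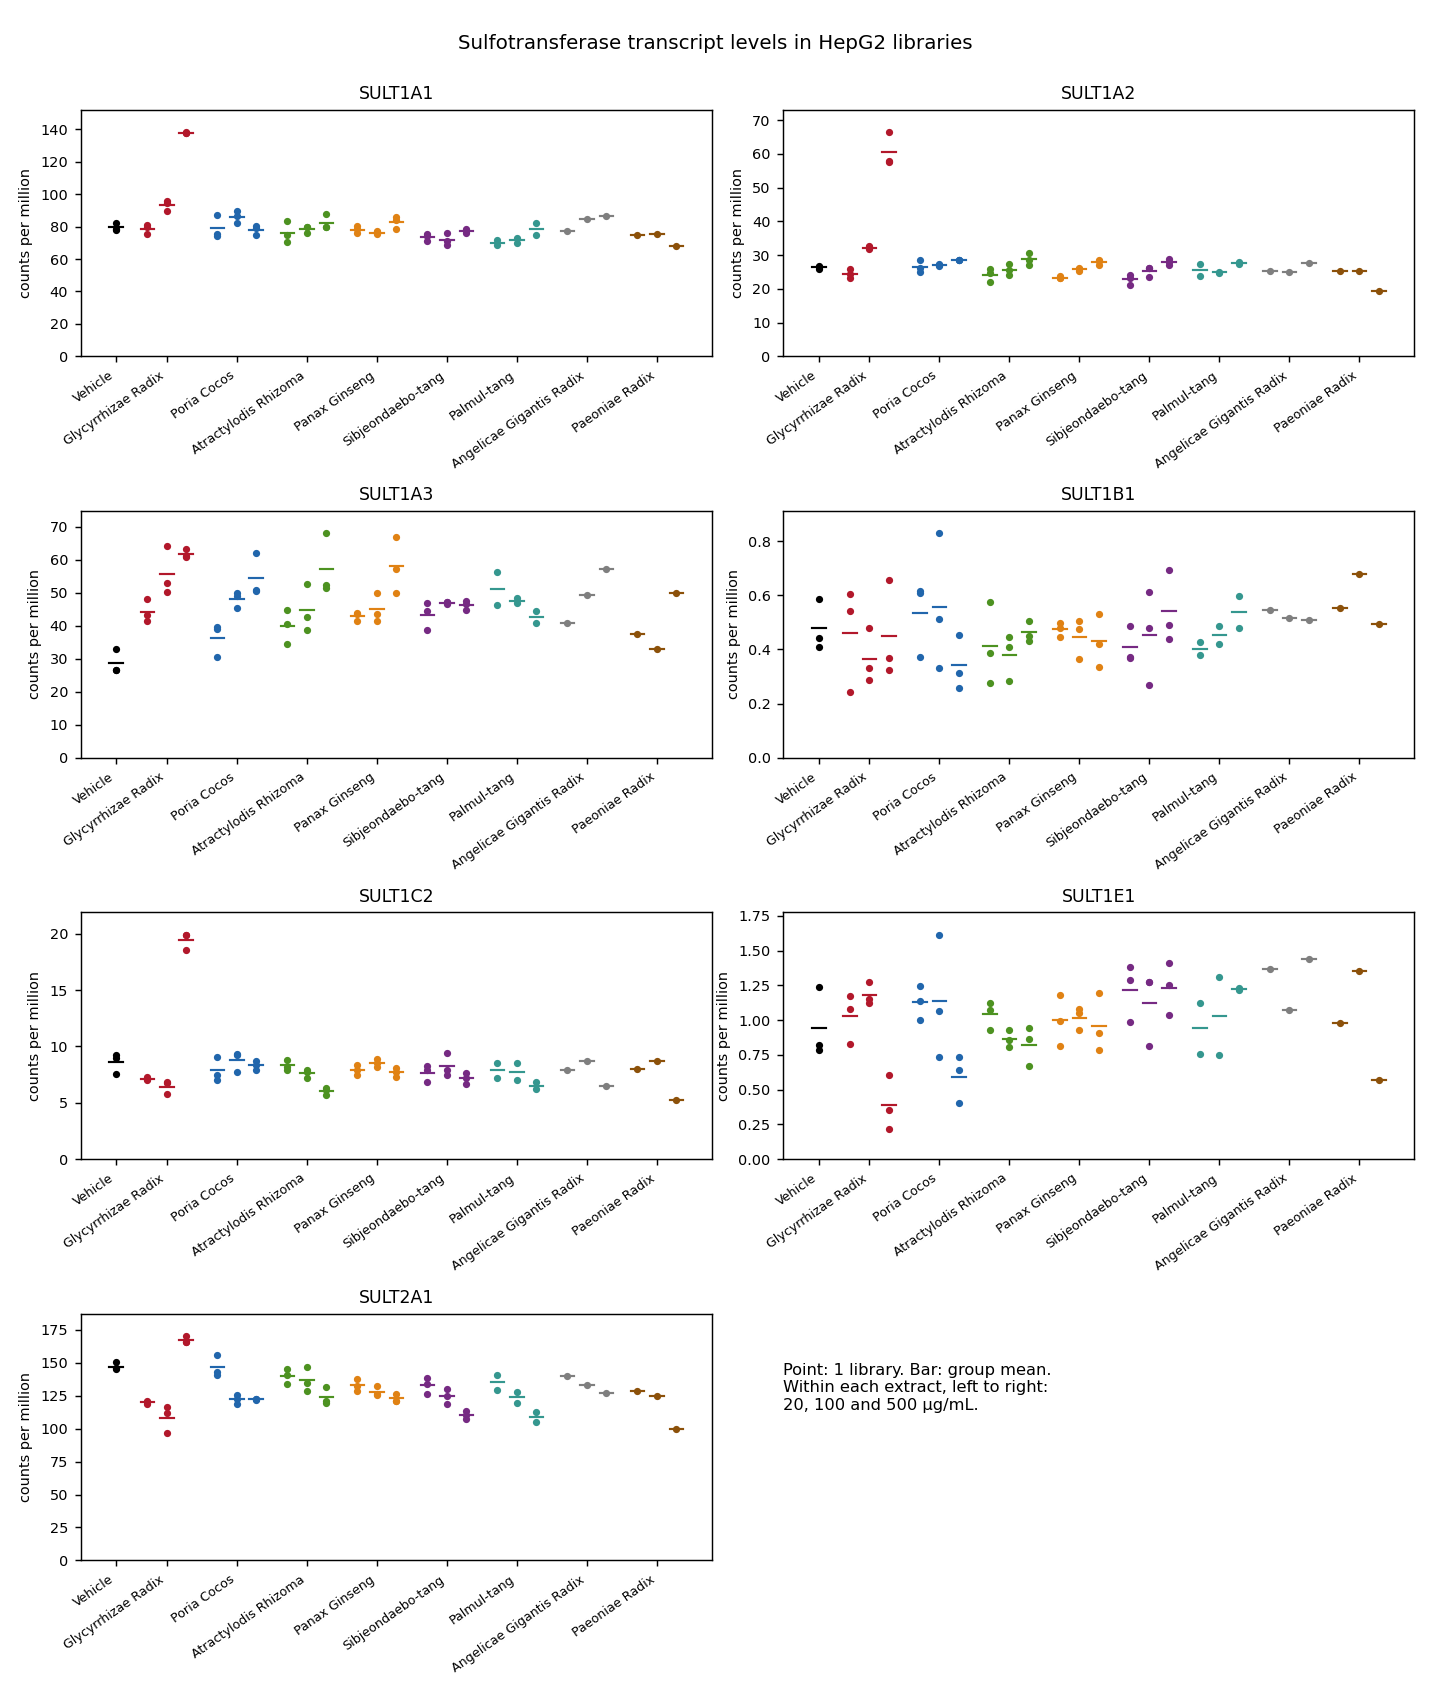
Level of each member (CPM, TMM-scaled, linear axis from 0) in all 60 libraries, 1 panel per gene, with vehicle at the left and Low, Medium and High of each extract from left to right; points are libraries and bars are group means. High Glycyrrhizae Radix libraries stand above all others for SULT1A1, SULT1A2 and SULT1C2, and all SULT1A3 vehicle libraries lie at or under 32.8 CPM, below all but 1 of the extract-treated libraries.

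The 5 members with a promoter in the RefSeq table of GRCh38.p14 were read for short motifs; SULT1A1 and SULT1A2 are the other 2. The 250 bases before the transcript start are shown for the 3 of them with the most called comparisons in the results that follow. For SULT1A3 these calls are of its row alone, which is uncertain as described below. SULT1C2 lies at chr2:108288645-108288894 on the plus strand, SULT2A1 at chr19:47886316-47886565 on the minus strand, and SULT1A3 at chr16:30199005-30199254 on the plus strand. Starts are those of RefSeq, and the genes as placed by GENCODE, whose coordinates are given below, begin upstream of them. All of the SULT1C2 stretch and part of the SULT2A1 and SULT1A3 stretches thus lie within the GENCODE gene. Capitals mark matches to the motifs searched on both strands.
SULT1C2: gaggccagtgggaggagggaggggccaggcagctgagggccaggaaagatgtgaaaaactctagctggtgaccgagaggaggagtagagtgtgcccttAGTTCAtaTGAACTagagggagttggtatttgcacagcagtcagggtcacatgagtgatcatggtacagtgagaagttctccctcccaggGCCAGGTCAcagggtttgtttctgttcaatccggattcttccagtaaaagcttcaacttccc
SULT2A1: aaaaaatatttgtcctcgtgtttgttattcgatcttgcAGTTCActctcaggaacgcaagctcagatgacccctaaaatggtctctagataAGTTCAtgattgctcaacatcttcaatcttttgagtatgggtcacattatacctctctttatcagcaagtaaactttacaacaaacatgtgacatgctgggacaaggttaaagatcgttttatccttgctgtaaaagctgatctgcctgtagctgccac
SULT1A3: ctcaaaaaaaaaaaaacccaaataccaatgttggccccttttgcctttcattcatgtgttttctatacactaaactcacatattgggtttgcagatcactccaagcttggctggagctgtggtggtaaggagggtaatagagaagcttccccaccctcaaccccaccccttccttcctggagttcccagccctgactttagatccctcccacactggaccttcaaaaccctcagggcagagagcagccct

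The motifs were the antioxidant response element core TGACNNNGC, the xenobiotic response element core GCGTG, the HNF1 element core GTTAAT, and the nuclear receptor hexamers AGGTCA and TGAACT. The SULT1C2 stretch held the TGAACT form on opposite strands with first bases at positions -152 and -144 from the transcript start, an antioxidant response element core at -62, and an AGGTCA overlapping it at -59. SULT2A1 held the TGAACT form at -212 and -159 and, beyond the stretch shown, a xenobiotic core at 36. Of the 2 promoters not shown, SULT1E1 held the HNF1 element core at -104 and SULT1B1 the TGAACT form at 24. Among 35116 promoter windows of 300 bases, 13.3% held the antioxidant core, 36.5% the xenobiotic core, 6.88% the HNF1 element core, 13.8% AGGTCA and 10.4% TGAACT. The SULT1A3 stretch held none of these letters. Its 300-base window differed at 0 positions from that of SULT1A4, whose matching 250 bases lie at chr16:29459663-29459912 on the plus strand.

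Comparing High with Low within each extract asks how the genes depend on dose among libraries with 1 set code. In this comparison 18 of 42 member tests passed edgeR's quasi-likelihood test at a Benjamini-Hochberg adjusted p under 0.05, 11 higher and 7 lower at High. Glycyrrhizae Radix had 5 members higher, where 28.4% of all genes tested were called higher, and 1 lower, where 27.8% were called lower. Poria Cocos had 1 higher (20% of all genes) and 2 lower (18.4% of all genes). Atractylodis Rhizoma had 2 higher (3.39% of all genes) and 2 lower (3.02%), and Panax Ginseng had 2 higher (2.92%) and 0 lower (2.87%). Sibjeondaebo-tang had 1 higher and 1 lower (0.522% of all genes each way), and Palmul-tang had 0 higher (0.197%) and 1 lower (0.319%). In the last 4 extracts the share of members called in either direction was thus above that of all genes, and each rests on 1 to 4 members. Most of these calls were lost when some single library was left out, as given for each gene below. The members were also chosen with earlier results of these data known, so these shares are descriptions. Glycyrrhizae Radix and Poria Cocos moved a large part of all genes, so a count of members adds little there beyond the size of each change.

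**Figure D2:**
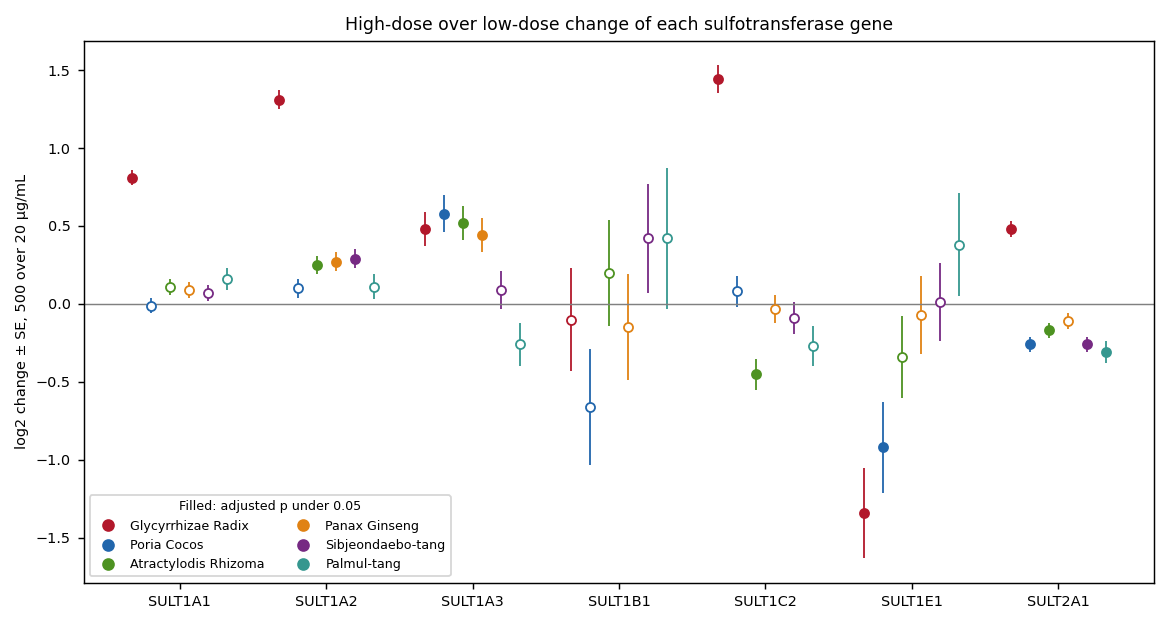
Log2 change of each member between High and Low of each replicated extract, with bars of 1 standard error; filled points passed edgeR's quasi-likelihood test at an adjusted p of 0.05 and open points did not. The Glycyrrhizae Radix points of SULT1C2 (1.44) and SULT1A2 (1.31) are the highest, and that of SULT1E1 (-1.34) is the lowest.

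SULT1A1, the main phenol sulfotransferase of adult liver (ENSG00000196502, chr16:28605196-28623625, minus strand, GRCh38), rose with Glycyrrhizae Radix. The libraries had 82.1, 78.6 and 78.1 CPM in vehicle, 79.5, 80.9 and 75.4 CPM at Low, 89.4, 95.8 and 94.4 CPM at Medium and 137.6, 138.0 and 138.4 CPM at High. The High libraries lay above all 57 others, Medium lay above Low and vehicle, and Low overlapped vehicle. High exceeded Low by 0.81 ± 0.05 (log2 ± SE, 1.75-fold, adjusted p = 5.46e-18), and Medium exceeded Low by 0.25 ± 0.05 (adjusted p = 0.00226). Against vehicle the log2 change was 0.80 at High (adjusted p = 7.12e-18) and 0.24 at Medium (adjusted p = 0.000394). In the other 5 replicated extracts the log2 change of High over Low lay between -0.01 and 0.16 and was not called.

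SULT1A2, the close neighbour of SULT1A1 with overlapping phenol substrates (ENSG00000197165, chr16:28591943-28597109, minus strand), moved in the same groups and further. It had 25.8, 26.9 and 26.6 CPM in vehicle, 23.1, 25.9 and 24.4 CPM at Low Glycyrrhizae Radix, 31.7, 32.6 and 32.4 CPM at Medium and 57.9, 57.6 and 66.5 CPM at High. No library of the High or Medium group overlapped Low or vehicle. The change of High over Low was 1.31 ± 0.06 on the log2 scale (2.47-fold, adjusted p = 1.29e-23) and that of Medium over Low was 0.40 ± 0.06 (adjusted p = 1.28e-05).

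SULT1A2 was also higher at High than at Low in 3 extracts in which SULT1A1 was not called. Its log2 change was 0.29 ± 0.06 in Sibjeondaebo-tang (adjusted p = 0.0102), 0.27 ± 0.06 in Panax Ginseng (adjusted p = 0.00483) and 0.25 ± 0.06 in Atractylodis Rhizoma (adjusted p = 0.00765). In Sibjeondaebo-tang the libraries had 26.9, 27.9 and 28.8 CPM at High and 23.1, 24.2 and 21.1 CPM at Low. In Panax Ginseng they had 27.0, 28.4 and 28.6 CPM at High and 23.8, 23.1 and 23.1 CPM at Low. High and Low did not overlap in either extract, and the vehicle libraries lay between them. Low was below vehicle by 0.21 in Sibjeondaebo-tang (adjusted p = 0.00843) and 0.18 in Panax Ginseng (adjusted p = 0.0223), while High was not called against vehicle in either. The rises in Sibjeondaebo-tang and Atractylodis Rhizoma and both falls depended on single libraries. Without replicate 3 of Low Sibjeondaebo-tang the rise there had an adjusted p of 0.158 and without replicate 3 of High 0.0712, and without replicate 2 of Low Atractylodis Rhizoma the rise there had 0.103 and without replicate 3 of High 0.0813. The fall at Low Sibjeondaebo-tang had an adjusted p of 0.0939 without its replicate 3, and that at Low Panax Ginseng 0.0529 to 0.081 without any 1 of 4 libraries. Whether SULT1A1 and SULT1A2 differed from each other in these changes was not tested.

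The SULT1A1 and SULT1A2 rows share few identical stretches of 100 bases. Exchange of reads that align with mismatches was not tested. Of all 100-base stretches of SULT1A2 transcripts 3.55% also occur in SULT1A1 transcripts, and 0.979% of those of SULT1A1 occur in SULT1A2. With both rows summed, High Glycyrrhizae Radix exceeded Low by 0.94 on the log2 scale (adjusted p = 1.95e-21).

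SULT1A3, which in humans sulfonates dopamine and other catecholamines (ENSG00000261052, chr16:30199228-30204310, plus strand), was the only member called higher than vehicle at every dose of the 6 replicated extracts, in 18 of 18 comparisons. Angelicae Gigantis Radix and Paeoniae Radix had no test, and Medium Paeoniae Radix had 32.9 CPM. Vehicle libraries had 32.8, 26.5 and 26.6 CPM. Glycyrrhizae Radix had 43.3, 41.3 and 48.0 CPM at Low, 64.0, 50.2 and 52.8 CPM at Medium and 60.8, 63.3 and 61.1 CPM at High. Poria Cocos had 30.6, 39.7 and 38.9 CPM at Low, 45.2, 49.9 and 48.9 CPM at Medium and 62.1, 50.9 and 50.4 CPM at High. All libraries of both extracts lay above all vehicle libraries except 1 at Low Poria Cocos. The log2 change against vehicle ran from 0.35 (Low Poria Cocos, adjusted p = 0.0319) to 1.12 (High Glycyrrhizae Radix, adjusted p = 1.68e-11). Between High and Low it was 0.58 ± 0.12 in Poria Cocos (adjusted p = 7.81e-05), 0.52 ± 0.11 in Atractylodis Rhizoma (adjusted p = 0.0022), 0.48 ± 0.11 in Glycyrrhizae Radix (adjusted p = 0.00027) and 0.44 ± 0.11 in Panax Ginseng (adjusted p = 0.0126). In Sibjeondaebo-tang it was 0.09 ± 0.12 (adjusted p = 0.839) and in Palmul-tang -0.26 ± 0.14 (adjusted p = 0.606), neither called. The call at Low Poria Cocos was lost without any 1 of 4 libraries (adjusted p = 0.1 to 0.168), that of High over Low in Atractylodis Rhizoma without replicate 3 of High (adjusted p = 0.0543), and that in Panax Ginseng without replicate 3 of High (adjusted p = 0.142) or of Low (adjusted p = 0.0597).

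The SULT1A3 row is uncertain by itself, because its transcripts are nearly identical to those of other genes and the counting tool estimated how reads were divided among them. SULT1A4 (ENSG00000213648, chr16:29459889-29464976, plus strand) encodes the same protein from a duplicated segment of chromosome 16, and 94.9% of the 100-base stretches of its transcripts also occur in SULT1A3 transcripts. Of the SULT1A3 stretches, 74.9% occur in SULT1A4 and 80.4% in at least 1 other gene. Against vehicle the SULT1A4 row moved opposite to that of SULT1A3: it had 79.7, 79.6 and 71.2 CPM in vehicle and was called lower than vehicle in 12 of 18 comparisons, by 0.28 to 0.79 on the log2 scale. Between High and Low its log2 change ran from 0.05 to 0.56 and was called, as higher, in Panax Ginseng (0.36, adjusted p = 0.0455). SULT1A3 took 32.3% to 58.6% of the sum of both rows in the 57 extract-treated libraries and 25.0% to 29.1% in the 3 vehicle libraries, and all 57 were above all vehicle libraries. SLX1B, the gene next to SULT1A4 in the same duplicated segment, took 0% to 43.4% of its own pair with SLX1A in extract-treated libraries and 30.9% to 58.4% in vehicle libraries, with 51 of 57 below all vehicle libraries.

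The sum of SULT1A3 and SULT1A4, which does not depend on how reads were divided between these 2 rows, separated from vehicle in fewer groups. It averaged 105.5 ± 7.35 CPM in vehicle and 105.2 ± 2.91, 129.0 ± 1.84 and 125.1 ± 7.41 CPM at Low, Medium and High Glycyrrhizae Radix (SD, n = 3 each). In a fit chosen after seeing the data with both rows summed, no Low group was higher than vehicle by edgeR's test, and 0 of 6 were higher at an unadjusted p under 0.05. Low Sibjeondaebo-tang was lower by 0.18 (adjusted p = 0.0102) and Low Panax Ginseng by 0.15 (adjusted p = 0.0332). Against vehicle the SULT1A3 row and the sum had opposite signs in 5 of 6 Low groups, and in Low Glycyrrhizae Radix the sum differed by -0.00. At High the sum was above vehicle in 4 of 6 extracts, by 0.22 in Poria Cocos, 0.23 in Atractylodis Rhizoma, 0.25 in Glycyrrhizae Radix and 0.24 in Panax Ginseng. The rise from dose held in the same 4 extracts, with log2 changes of High over Low of 0.28 in Poria Cocos (adjusted p = 9.15e-05), 0.37 in Atractylodis Rhizoma (adjusted p = 2.28e-05), 0.25 in Glycyrrhizae Radix (adjusted p = 0.000203) and 0.39 in Panax Ginseng (adjusted p = 6.88e-06). The read-through genes SLX1A-SULT1A3 and SLX1B-SULT1A4 hold 62.4% of the SULT1A3 stretches and 73.5% of those of SULT1A4, so the sum still depends on the division with them. With them also added, those 4 changes were 0.20, 0.28, 0.11 and 0.33, all called.

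**Figure D3:**
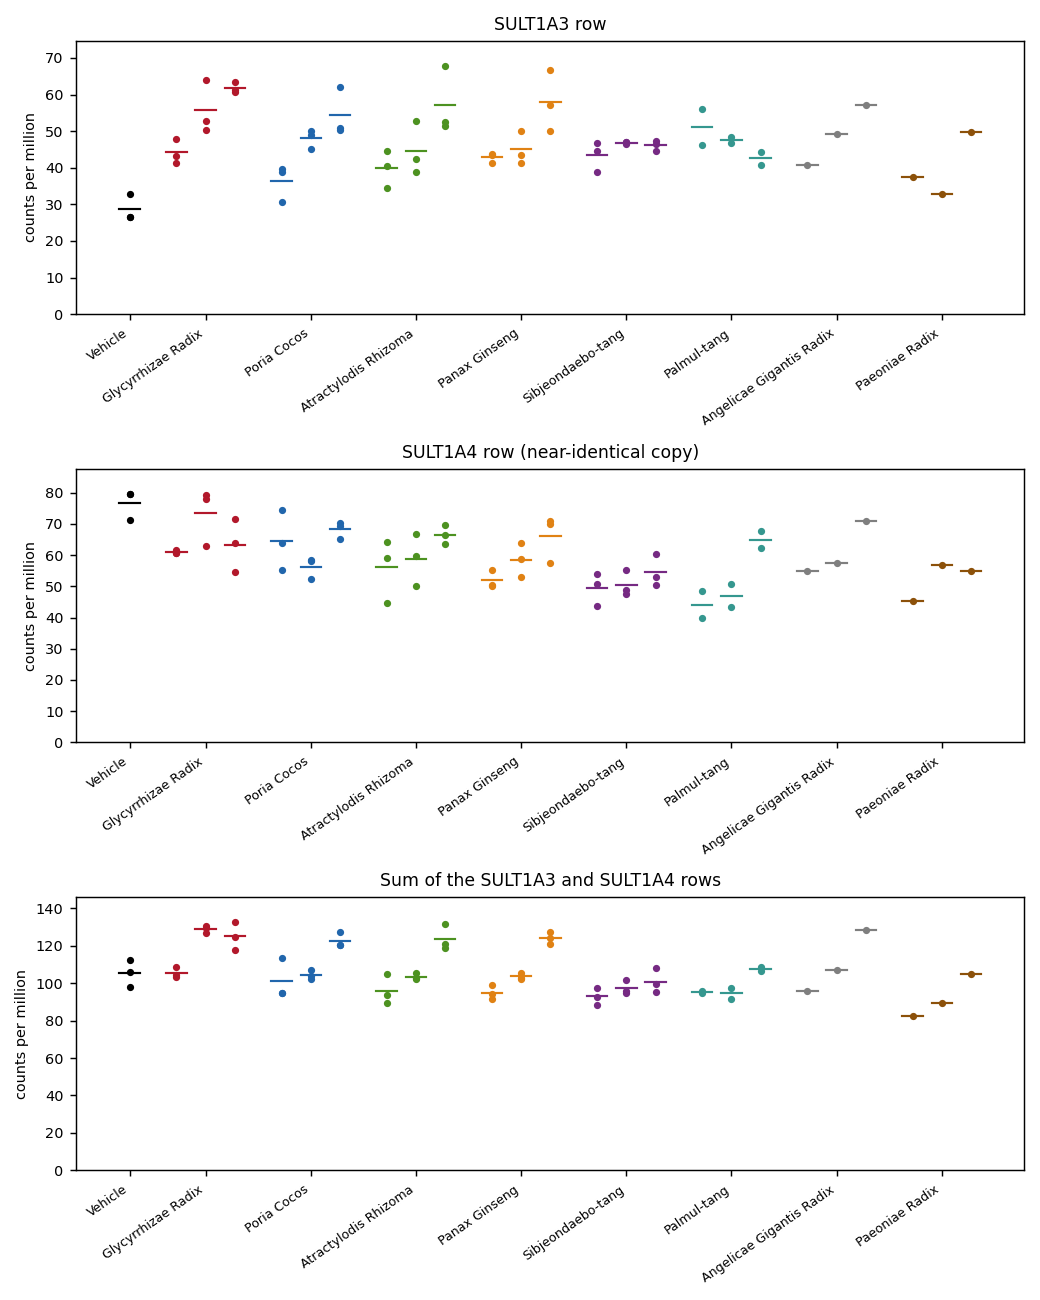
Levels (CPM) of the SULT1A3 row, the SULT1A4 row and their sum in all 60 libraries, with vehicle at the left and Low, Medium and High of each extract from left to right; points are libraries and bars are group means. Vehicle is lowest for SULT1A3 and among the highest for SULT1A4, while the group means of the sum at Low lie at or below the vehicle mean of 105.5 CPM.

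SULT1B1, an intestinal and hepatic enzyme that takes thyroid hormones and small phenols (ENSG00000173597, chr4:69721162-69787961, minus strand), was at the edge of detection, with 6 to 19 counts per library and 0.242 to 0.829 CPM. It was called in 0 of 48 comparisons by edgeR's test, and in 1 at an unadjusted p under 0.05. DESeq2 called it in none, but gave no adjusted p for some member tests. The log2 change of High over Low ran from -0.66 ± 0.37 in Poria Cocos to 0.42, so differences of this size were not detectable at this depth.

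SULT1C2, a fetal-type enzyme also found in stomach and kidney (ENSG00000198203, chr2:108288639-108309915, plus strand; one of the promoters printed above), had the largest rise of High over Low among the members. Its libraries had 9.01, 9.24 and 7.59 CPM in vehicle and, in Glycyrrhizae Radix, 7.02, 7.09 and 7.29 CPM at Low, 6.73, 5.74 and 6.85 CPM at Medium and 18.6, 19.9 and 19.9 CPM at High. High lay above all other libraries, and Low and Medium lay below every vehicle library. High exceeded Low by 1.44 ± 0.09 (log2, 2.72-fold, adjusted p = 3.35e-19) and vehicle by 1.18 ± 0.08 (2.26-fold, adjusted p = 1.31e-16), where SULT1A2 was 2.3-fold higher. Medium was below vehicle by 0.42 (adjusted p = 0.00051) and Low by 0.27 (adjusted p = 0.0241), the Low call being lost without any 1 of 4 libraries (adjusted p = 0.061 to 0.135).

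The opposite change of SULT1C2 appeared at High Atractylodis Rhizoma. Libraries had 6.30, 6.14 and 5.70 CPM at High and 8.84, 8.21 and 7.88 CPM at Low, with no overlap. The log2 change was -0.45 ± 0.10 against Low (adjusted p = 0.00205) and -0.51 ± 0.10 against vehicle (adjusted p = 5.76e-05). High Palmul-tang was also below vehicle, by 0.40 (adjusted p = 0.00462), and High Sibjeondaebo-tang by 0.26 (adjusted p = 0.0325). The first call was lost without replicate 2 of High Palmul-tang (adjusted p = 0.0993) and the second without any 1 of 4 libraries (adjusted p = 0.0783 to 0.151).

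SULT1E1, the high-affinity estrogen sulfotransferase (ENSG00000109193, chr4:69841212-69860152, minus strand), was present at 5 to 45 counts per library. Its counts at High Glycyrrhizae Radix were 18, 12 and 5. As CPM these were 0.604, 0.354 and 0.218, against 0.826, 1.08 and 1.18 at Low and 0.785, 1.24 and 0.817 in vehicle. High did not overlap Low or vehicle, and the log2 change was -1.34 ± 0.29 against Low (adjusted p = 8.47e-05) and -1.23 ± 0.29 against vehicle (adjusted p = 0.000274). High Poria Cocos had 8, 14 and 15 counts, which were 0.402, 0.734 and 0.640 CPM, against 0.999, 1.14 and 1.24 CPM at Low. These groups did not overlap either, and the log2 change was -0.92 ± 0.29 (adjusted p = 0.00926). Without replicate 1 of High Poria Cocos it was -0.72 and no longer called (adjusted p = 0.0723). Of the SULT1E1 stretches of 100 bases, 15.5% occur in another gene.

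SULT2A1, the sulfotransferase for dehydroepiandrosterone and bile acids (ENSG00000105398, chr19:47870466-47886397, minus strand; promoter printed above), fell with dose in 4 extracts and followed another course in Glycyrrhizae Radix. Vehicle libraries had 150.3, 145.7 and 145.1 CPM, and Sibjeondaebo-tang libraries had 125.9, 138.7 and 133.8 CPM at Low, 118.8, 129.9 and 124.5 CPM at Medium and 107.3, 113.6 and 110.1 CPM at High. All Sibjeondaebo-tang libraries were below all vehicle libraries, and High was below Low and Medium. The log2 change of High over Low was -0.26 ± 0.05 in Sibjeondaebo-tang (adjusted p = 0.003), -0.31 ± 0.07 in Palmul-tang (adjusted p = 0.00659), -0.26 ± 0.05 in Poria Cocos (adjusted p = 8.28e-05) and -0.17 ± 0.05 in Atractylodis Rhizoma (adjusted p = 0.0337). In Panax Ginseng it was -0.11 (adjusted p = 0.268). The Atractylodis Rhizoma call was lost without any 1 of 4 libraries (adjusted p = 0.0993 to 0.154), and that of Palmul-tang without replicate 2 of High (adjusted p = 0.173) or of Low (adjusted p = 0.226), which leaves 1 library at that dose that is assumed to vary like the other groups.

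Poria Cocos reached its lower SULT2A1 level by the Medium dose. Its libraries had 156.0, 140.4 and 142.8 CPM at Low, 125.7, 122.7 and 118.3 CPM at Medium and 122.8, 121.4 and 122.1 CPM at High. Medium and High overlapped each other and lay below Low, and Medium differed from Low by -0.26 ± 0.05 on the log2 scale (adjusted p = 0.000311).

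In Glycyrrhizae Radix SULT2A1 was below vehicle at Low and Medium and above it at High. The libraries had 118.6, 120.8 and 120.2 CPM at Low, 96.6, 116.3 and 112.1 CPM at Medium and 165.8, 165.8 and 170.1 CPM at High. None of these groups overlapped vehicle. The log2 changes against vehicle were -0.29 at Low (adjusted p = 4.56e-05), -0.43 at Medium (adjusted p = 1.58e-08) and 0.19 at High (adjusted p = 0.00155), and High exceeded Low by 0.48 ± 0.05 (adjusted p = 9.35e-11). The group means of SULT1C2 had the same order in this extract.

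Between Medium and Low, 4 of 42 member tests passed, 3 higher and 1 lower. They were SULT1A1 and SULT1A2 in Glycyrrhizae Radix, where 3.56% of all genes were called, and SULT1A3 and SULT2A1 in Poria Cocos, where 15.5% were called. No member was called in the other 4 extracts, where 0.00614% of all genes were called in Sibjeondaebo-tang and in Panax Ginseng and 0% in Palmul-tang and in Atractylodis Rhizoma. Of their member tests, 1 in Sibjeondaebo-tang, 1 in Panax Ginseng and 0 in the other pair had an unadjusted p under 0.05, and DESeq2 called 0. In Panax Ginseng DESeq2 gave an adjusted p for only 3 of 7 members. The SULT1A3 change, 0.40 ± 0.12 (adjusted p = 0.0138), was lost without replicate 1 of Low (adjusted p = 0.133) or replicate 2 of Medium (adjusted p = 0.0535), and the sum with SULT1A4 changed by 0.05 and was not called.

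Against vehicle, 20 of 42 tests passed at High (10 higher, 10 lower), 15 at Medium (8 higher, 7 lower) and 13 at Low (6 higher, 7 lower). Of all genes at High, 31.1% were called higher and 30.2% lower in Glycyrrhizae Radix, 26.3% were called higher and 24.8% lower in Poria Cocos, and 17.3% were called higher and 16.7% lower in Atractylodis Rhizoma. The shares were 18.5% higher and 17.8% lower in Panax Ginseng, 17.8% higher and 16.4% lower in Sibjeondaebo-tang, and 15.3% higher and 13.9% lower in Palmul-tang. At Medium, with extracts in the same order, the shares called higher were 17.9%, 19.7%, 14.7%, 15.3%, 18.2% and 15.4%, and those called lower were 17%, 18.9%, 13.6%, 14.6%, 17.8% and 14.2%. At Low, with extracts in the same order, the shares called higher were 15.2%, 9.9%, 13.7%, 16.8%, 18.3% and 16.1%, and those called lower were 14.5%, 9.32%, 13.1%, 16.6%, 17.6% and 15%. All 6 higher calls at Low were SULT1A3. With SULT1A3 replaced by its sum with SULT1A4 and the read-through genes, chosen after seeing the data, the calls among 42 tests were 0 higher and 10 lower at Low and 3 higher and 8 lower at Medium. SULT2A1 was lower than vehicle at High in 5 extracts, by 0.41 in Sibjeondaebo-tang, 0.43 in Palmul-tang, 0.26 in Poria Cocos, 0.24 in Atractylodis Rhizoma and 0.25 in Panax Ginseng on the log2 scale.

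The dose response of each member was then compared between extracts by the difference of their High minus Low log2 changes, over all 15 pairs of extracts. A joint test of all 6 extracts was called for 6 of 7 members, SULT1B1 being the exception (adjusted p = 0.391), where 53.8% of all genes were called. Of 105 pairwise member tests 30 passed, and 26 of the 30 involved Glycyrrhizae Radix. All genes tested were called at shares of 45.6% for Glycyrrhizae Radix minus Poria Cocos, 45.9% minus Atractylodis Rhizoma, 45.4% minus Panax Ginseng, 44.2% minus Sibjeondaebo-tang and 39.2% minus Palmul-tang. The log2 change of SULT1C2 was larger in Glycyrrhizae Radix by 1.36 to 1.89, that of SULT1A2 by 1.02 to 1.21, that of SULT1A1 by 0.65 to 0.82 and that of SULT2A1 by 0.59 to 0.79, each against all 5 other extracts. The SULT1E1 change was lower in Glycyrrhizae Radix than in 4 extracts, by 1.00 to 1.72, and its difference from Poria Cocos was -0.42 (adjusted p = 0.434). For Poria Cocos the shares of all genes called were 19% against Atractylodis Rhizoma, 19% against Panax Ginseng, 22.9% against Sibjeondaebo-tang and 19.4% against Palmul-tang. Poria Cocos against Panax Ginseng and the 6 pairs without either Glycyrrhizae Radix or Poria Cocos had no member called by edgeR. In those 6 pairs 0% of all genes were called for Atractylodis Rhizoma minus Panax Ginseng, 0.387% and 0.147% for Atractylodis Rhizoma minus Sibjeondaebo-tang and minus Palmul-tang, 0.405% and 0.166% for Panax Ginseng minus the same formulas, and 0% for Sibjeondaebo-tang minus Palmul-tang. Over these 7 pairs 10 of 49 member tests had an unadjusted p under 0.05, and DESeq2 called 1, SULT1A3 in Atractylodis Rhizoma minus Palmul-tang (adjusted p = 0.0181). DESeq2 gave an adjusted p for 4 to 7 of the 7 members in each of these pairs. The comparisons of 1 extract with several others share its libraries.

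Sibjeondaebo-tang and Palmul-tang, whose traditional recipes overlap, were compared at each dose. No member was called in 21 tests by edgeR's quasi-likelihood test, and 0% of all genes were called at any of the 3 doses. At an unadjusted p under 0.05 there was 1 member test, and DESeq2 called 0. The log2 difference of Sibjeondaebo-tang minus Palmul-tang lay between -0.03 and 0.02 for SULT2A1, each ± 0.06, and between -0.02 and 0.07 for SULT1A1, each ± 0.06. For SULT1A2 it was -0.17 ± 0.07 at Low and 0.01 ± 0.07 at High, and for SULT1A3 -0.24 ± 0.13 at Low and 0.11 ± 0.13 at High. SULT1E1 and SULT1B1, with few counts, had standard errors of 0.26 to 0.44.

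Angelicae Gigantis Radix and Paeoniae Radix had 1 library per dose, so their differences have no replicate check. At Low, Medium and High, SULT2A1 had 140.0, 133.3 and 126.9 CPM in Angelicae Gigantis Radix and 128.4, 124.4 and 99.4 CPM in Paeoniae Radix. SULT1C2 had 7.88, 8.72 and 6.48 CPM in Angelicae Gigantis Radix and 7.95, 8.74 and 5.20 CPM in Paeoniae Radix. The SULT1A3 row reached 57.1 CPM at High Angelicae Gigantis Radix and 49.8 CPM at High Paeoniae Radix. Its sum with SULT1A4 was 128.2 and 104.7 CPM there, against 112.5, 106.1 and 97.8 CPM in vehicle libraries. With the read-through genes added, the sums were 164.7 and 129 CPM, against 137.6 to 150.8 CPM in vehicle. High Paeoniae Radix had the lowest SULT1A1, SULT1A2 and SULT1C2 of all 60 libraries, at 68.3, 19.4 and 5.20 CPM. Relative to the vehicle mean its log2 ratios were -0.22, -0.44 and -0.71 for these genes and -0.57 for SULT2A1. The median range between replicates of a group was 0.10 for SULT1A1, 0.09 for SULT1A2, 0.16 for SULT1C2 and 0.10 for SULT2A1 on the same scale. Against vehicle, a log2 ratio beyond 1 in either direction was reached by 3.46% of genes at High Angelicae Gigantis Radix. At High Paeoniae Radix the share was 6.72%. Of the members only SULT1A3 came to this bound, with a log2 ratio of 1.00 at High Angelicae Gigantis Radix for its row alone.

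The genes whose pattern over the 25 group means of log2 CPM was most like that of each member were named by Pearson correlation, as a description. For SULT1A1 they were TSKU (r = 0.940), ABCC3 (0.926) and YARS1 (0.922), and for SULT1A2 ABCC3 (0.971), TSKU (0.940) and IARS1 (0.933). MST1 (0.919), NEAT1 (0.898) and RHOBTB3 (0.882) were nearest to SULT1C2, and DMAC2L (0.876), CES2 (0.848) and HGFAC (0.838) to SULT2A1. ACSL6 (0.895), EME1 (0.881) and TFDP2 (0.878) were nearest to SULT1E1, and CEP170 (0.862), DCP1A (0.816) and MYC (0.812) to SULT1A3. The values for SULT1B1 were lower, with MORN3 (0.739), POLR2J2 (0.697) and TYSND1 (0.690). Among the members themselves SULT1A1 and SULT1A2 were closest (r = 0.93), followed by SULT1C2 with SULT2A1 and with SULT1A2 (both 0.74). All of these values rest on the same libraries, and they were not recomputed without any extract.

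Genes of the donor, of sulfatases and of regulators were listed as well. Donor synthesis rests on PAPSS1 and PAPSS2, and PAPSS2 had only 1 to 11 counts per library. PAPSS1, named after its values were seen, averaged 33.5 ± 2.5 CPM at High Glycyrrhizae Radix, against 68.0 ± 1.11 CPM at Low and 68.7 ± 2.82 CPM in vehicle (SD, n = 3 each). High was below Low by 1.03 ± 0.06 on the log2 scale (adjusted p = 9.69e-21), in the same libraries in which 5 SULT genes were higher. In Poria Cocos PAPSS1 differed by -0.05 and was not called.

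Sulfatases, which remove sulfate groups and are listed here with their activating factors SUMF1 and SUMF2, were higher in 8 and lower in 3 of 12 genes between High and Low Glycyrrhizae Radix. The shares of all genes were 28.4% higher and 27.8% lower. Whether the listed sulfatases act on products of SULT enzymes was not tested. Their median log2 change was 0.43, beside 0.01 over all genes tested. In Poria Cocos 6 were higher and 2 lower, where 20% and 18.4% of all genes were, with a median of 0.20 beside -0.00 over all genes. ARSG rose in both, by 1.03 in Glycyrrhizae Radix (adjusted p = 4.89e-16) and 0.32 in Poria Cocos (adjusted p = 0.00188), as did IDS, the lysosomal iduronate sulfatase, by 0.33 and 0.93 in that order (adjusted p = 0.000589 and 1.6e-12). ARSA, the lysosomal arylsulfatase A, rose by 0.93 in Glycyrrhizae Radix (adjusted p = 9.06e-16) and fell by 0.38 in Poria Cocos (adjusted p = 0.000167) and by 0.31 in Atractylodis Rhizoma (adjusted p = 0.00684).

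Of the 11 genes listed for the supply of sulfate and cysteine sulfur 9 were tested. In Glycyrrhizae Radix 5 were higher and 3 lower (median 0.26), and in Poria Cocos 1 was higher and 3 lower (median -0.15), beside the same all-gene shares of 28.4% higher and 27.8% lower in Glycyrrhizae Radix and 20% and 18.4% in Poria Cocos. CDO1, the cysteine dioxygenase that starts cysteine oxidation, fell by 0.40 in Glycyrrhizae Radix (adjusted p = 0.000697) and by 0.88 in Poria Cocos (adjusted p = 5e-09). SUOX, the sulfite oxidase that forms sulfate, fell by 0.63 (adjusted p = 6.04e-14) and by 0.15 (adjusted p = 0.0263). GOT1, an aspartate aminotransferase that also acts on cysteine sulfinate, rose by 0.35 (adjusted p = 3.26e-07) and by 0.48 (adjusted p = 1.18e-09). SLC35B3, a carrier of PAPS into the Golgi, was higher by 0.29 in Glycyrrhizae Radix (adjusted p = 0.000594) and fell by 0.44 in Poria Cocos (adjusted p = 1.25e-05). It was the only called gene of 2 in its list. Of the other short lists, named after their values were seen, BPNT2, a phosphatase of the spent donor in the Golgi, rose by 0.63 in Poria Cocos (adjusted p = 1.26e-11). TPST2 rose by 0.28 in Glycyrrhizae Radix (adjusted p = 0.000815) and TPST1 by 0.25 in Poria Cocos (adjusted p = 0.00566), both being tyrosylprotein sulfotransferases of the Golgi. The partner genes BPNT1, TPST1 in Glycyrrhizae Radix and TPST2 in Poria Cocos were not called.

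Among 14 regulators reported for SULT genes, 6 were higher and 3 lower in Glycyrrhizae Radix (median 0.01), and 3 were higher and 4 lower in Poria Cocos (median -0.03). With 28.4% of all genes higher and 27.8% lower in Glycyrrhizae Radix, and 20% and 18.4% in Poria Cocos, these counts are near those of all genes. NR1H4, the bile acid receptor FXR, fell by 1.35 in Poria Cocos (adjusted p = 1.62e-23), to 19.8 CPM at High against 50.6 CPM at Low, and by 0.20 in Glycyrrhizae Radix (adjusted p = 0.000812). VDR, the vitamin D receptor, was present at 16 to 68 counts and fell by 1.17 in Glycyrrhizae Radix (adjusted p = 4.49e-05) and by 0.79 in Poria Cocos (adjusted p = 0.00474). AHR, the aryl hydrocarbon receptor, rose by 0.55 (adjusted p = 1.71e-07) and by 0.37 (adjusted p = 0.000428). CYP1A1, a target of that receptor, averaged 11.4 CPM in vehicle and 37.2, 289.5 and 1169 CPM at Low, Medium and High Glycyrrhizae Radix. AKR1B10, an aldo-keto reductase of the antioxidant response, averaged 249.4 CPM at High and 43.7 CPM at Low in that extract. Whether these genes have a part in the sulfotransferase changes was not tested. CYP1A1 and AKR1B10 are in none of the pathway lists and were named outside the rule for pathway genes. NQO1 was computed with them and is not described here. Over all pathway lists together, the counts of called genes among 45 tested between High and Low were 31 in Glycyrrhizae Radix and 22 in Poria Cocos, against 1 each in Atractylodis Rhizoma, Panax Ginseng and Sibjeondaebo-tang and 0 in Palmul-tang, where 7 had an unadjusted p under 0.05. All genes showed the same contrast between extracts, with 28.4% higher and 27.8% lower in Glycyrrhizae Radix, 20% and 18.4% in Poria Cocos, and at most 3.39% higher and 3.02% lower in the other 4.

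**Figure D4:**
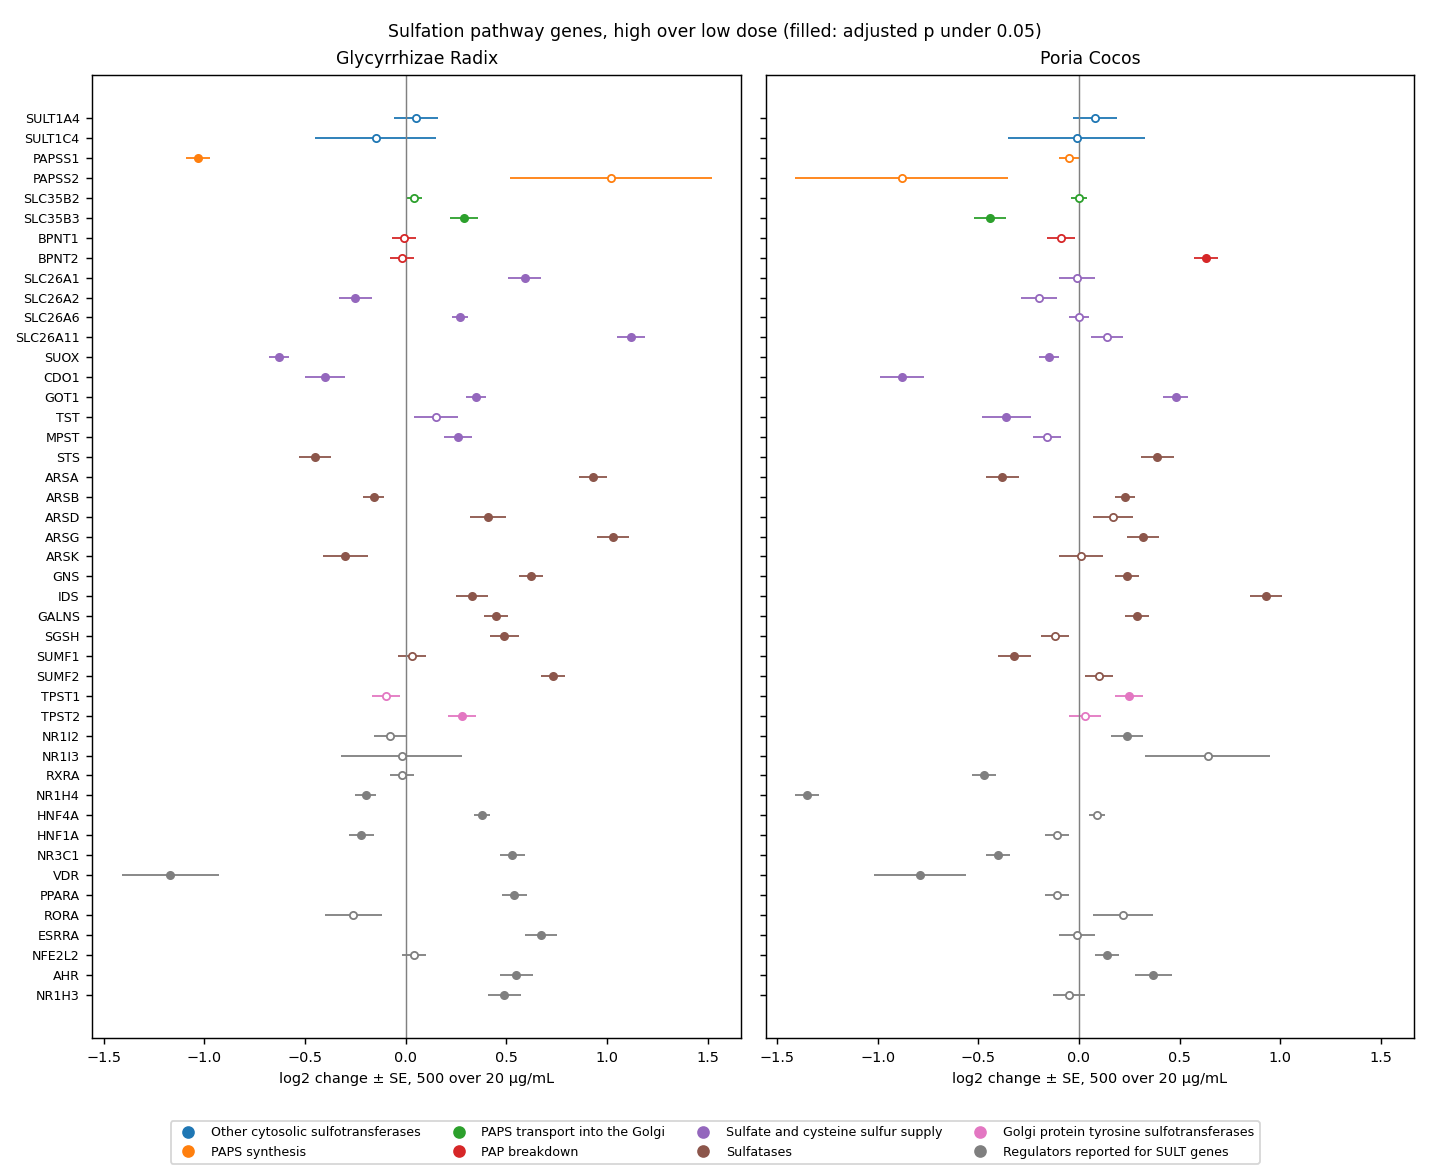
Log2 change between High and Low for the sulfonation pathway genes in Glycyrrhizae Radix and Poria Cocos, grouped by list; filled points passed edgeR's quasi-likelihood test at an adjusted p of 0.05. PAPSS1 lies at -1.03 in Glycyrrhizae Radix and -0.05 in Poria Cocos, and NR1H4 lies at -0.20 and -1.35.

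Of 6 other cytosolic sulfotransferases listed, only SULT1A4 and SULT1C4 passed the filter. SULT1C4, another fetal-type enzyme, had 7 to 32 counts per library. SULT1C3, SULT4A1 and SULT6B1 had at most 1 count in any library and SULT2B1 at most 3, levels at which no difference could be measured.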

How the data were processed

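Per the labels' protocols, directional mRNA libraries of total RNA were sequenced as 100 bp paired reads on an MGI instrument. Per the submitters' processing notes the tools were FastQC 0.11.9, Trim Galore 0.6.5, STAR 2.7.3a and RSEM 1.3.3 with GRCh38; the annotation release and strand setting are not given in the sources used here. The values the authors deposited are expected counts per gene, not normalized, and 23.37% of nonzero values were not whole within 0.005. The table holds 60675 genes and 270 sample columns, of which 60 were used and 210 were not.

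Expected counts were rounded. The filterByExpr function kept 16284 genes, and library sizes were scaled by TMM. The edgeR package (version 4.0.16, with limma 3.58.1 under R 4.3.3) supplied the quasi-likelihood tests, with p-values adjusted over all genes by Benjamini and Hochberg and called under 0.05; where a sentence gives an adjusted p and no tool, it is from edgeR. The model had 1 coefficient for each of 19 groups with replicates, over 54 libraries. The common dispersion of 0.00317 corresponds to a coefficient of variation of 5.63% between replicates. Fold changes are edgeR's, and a prior count of 2 entered log2 CPM. Levels are CPM with the SD. Coordinates are those of GENCODE release 29 on GRCh38, and promoters those of RefSeq.

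Replicates of a group differed by more than sampling noise in all 51 pairs (mean chi-square per gene 2.57 to 36.8), so none was treated as a duplicate. The highest value was that of the 2 High Palmul-tang libraries. Replicate 2 of these also had the highest mitochondrial share of all libraries, 24.76%, against 18.39% in replicate 3. The SULT2A1 call between High and Low Palmul-tang and the SULT1C2 call of High Palmul-tang against vehicle depended on that replicate 2. By the labels' replicate numbers, 2 of 33 comparisons had 3 pairs that all correlated above 0.1, High and Medium against Low of Atractylodis Rhizoma. The main fit has no pairing term, and a block on the replicate number was fitted as an alternative. Sibjeondaebo-tang against Palmul-tang, with 2 pairs each, also lay above 0.1 at High (0.20 to 0.34) and Low (0.23 to 0.25).

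The 7 members and the pathway lists were chosen with earlier results of these data known, so their counts are descriptions. Named pathway genes are those called between High and Low in at least 2 extracts, at most 3 per list by size. Alternatives were DESeq2 1.42.0, other scalings, no filter, narrower fits, replicate blocks, summed copies, and leaving out each library.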

Additional observations from a re-analysis of the deposited data

Results flagged for a closer look

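The change of High minus Low differed between extracts by edgeR's quasi-likelihood test of the difference itself (Benjamini-Hochberg adjusted over all genes) in 30 pairs of member and extracts, given as differences on the log2 scale. SULT1C2 changed more in Glycyrrhizae Radix than in Atractylodis Rhizoma by 1.89, Palmul-tang by 1.71, Panax Ginseng by 1.48, Poria Cocos by 1.36 and Sibjeondaebo-tang by 1.53. For SULT1A2 the differences from these 5 extracts, in this order, were 1.06, 1.2, 1.04, 1.21 and 1.02. Those of SULT1A1 were 0.70, 0.65, 0.72, 0.82 and 0.74, and those of SULT2A1 were 0.65, 0.79, 0.59, 0.74 and 0.74. SULT1A1, SULT1A2, SULT1C2 and SULT2A1 thus differed in Glycyrrhizae Radix from every other replicated extract, while PAPSS1, which makes the sulfonate donor, was lower at High than at Low of that extract by 1.03 on the log2 scale.

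SULT1E1 changed further downward in Glycyrrhizae Radix than in Atractylodis Rhizoma (-1.0), Palmul-tang (-1.72), Panax Ginseng (-1.28) and Sibjeondaebo-tang (-1.35), and further downward in Poria Cocos than in Palmul-tang (-1.30). These values rest on 5 to 45 counts per library. SULT1A3 changed more in Glycyrrhizae Radix than in Palmul-tang (0.74) and Sibjeondaebo-tang (0.39), and more in Poria Cocos than in the same formulas (0.84 and 0.49 in that order), on a row that shares most of its sequence with SULT1A4. None of these 4 SULT1A3 differences was called once the copies were summed: in the same order they were -0.07, 0.02, 0.01 and 0.10 with the read-through genes, and 0.07, 0.13, 0.11 and 0.16 without them. With the read-through genes the summed locus changed less in Glycyrrhizae Radix than in Panax Ginseng (-0.21, adjusted p = 0.00464) and Atractylodis Rhizoma (-0.17, adjusted p = 0.026). Without them these were -0.14 and -0.12 and not called. SULT1C2 also differed by 0.53 between Poria Cocos and Atractylodis Rhizoma. Groups of 3 or fewer libraries were not examined for outlying samples.

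Leaving out 1 library ended the call of 4 of these differences: SULT1E1 in Glycyrrhizae Radix minus Atractylodis Rhizoma, SULT1E1 in Poria Cocos minus Palmul-tang, SULT1A3 in Glycyrrhizae Radix minus Sibjeondaebo-tang and SULT1A3 in Poria Cocos minus Sibjeondaebo-tang. In this order their adjusted p was then 0.0559 to 0.113 without any 1 of 7 libraries, 0.0567 to 0.159 without any 1 of 5, 0.0564 to 0.113 without any 1 of 9 and 0.0513 to 0.105 without any 1 of 5.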

How the results depend on the processing

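With SULT1A3, SULT1A4 and their read-through genes summed and SULT1A1 summed with SULT1A2, 9 of 36 tests were called at Medium against vehicle and 8 of 36 at Low, compared with 15 and 13 of 42 for separate rows. Without the read-through genes, a setting added after seeing the data, the counts were 8 and 7. Part of this fall comes from having 1 row in place of SULT1A1 and SULT1A2. With only the SULT1A3 locus summed, also added after seeing the data, 11 of 42 tests were called at Medium and 10 at Low, or 11 and 9 without the read-through genes. The log2 change of SULT1A3 against vehicle changed sign in the groups that follow. In the first form it was -0.05, -0.11 and -0.15 at High, Medium and Low Sibjeondaebo-tang, -0.11 and -0.13 at Medium and Low Palmul-tang, -0.01 and -0.06 at Medium and Low Poria Cocos, -0.03 and -0.11 at Medium and Low Atractylodis Rhizoma, -0.05 and -0.13 at Medium and Low Panax Ginseng, and -0.00 at Low Glycyrrhizae Radix. In the second form the same groups, in this order without the last, gave -0.06, -0.11, -0.18, -0.15, -0.14, -0.01, -0.06, -0.02, -0.13, -0.02 and -0.15. With only the SULT1A3 locus summed the first-form values were the same to the digits printed, and the second-form values, in the same order, were -0.06, -0.12, -0.18, -0.16, -0.15, -0.02, -0.06, -0.03, -0.14, -0.03 and -0.15, with -0.00 at Low Glycyrrhizae Radix. The difference of High minus Low for SULT1A3 became -0.21 in Glycyrrhizae Radix minus Panax Ginseng and -0.07 in Glycyrrhizae Radix minus Palmul-tang in the first form. With only the SULT1A3 locus summed, edgeR called the Panax Ginseng difference as lower (adjusted p = 0.00464) and not the Palmul-tang difference.

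Every other alternative left the counts of member calls within 1.5 times of the reported ones, although equal counts can hold different calls. Without the filter on low counts, 9 member calls were lost and 5 were gained. All gained calls were of SULT1A3, among them Atractylodis Rhizoma minus Palmul-tang (adjusted p = 6.52e-12, from 0.0578) and Panax Ginseng minus Palmul-tang (adjusted p = 3.36e-09, from 0.127). DESeq2 gave 18, 4, 19, 16 and 13 calls for High against Low, Medium against Low, and High, Medium and Low against vehicle. In this order it gave an adjusted p for 34, 35, 40, 40 and 38 of the 42 tests. Fitting only the groups compared gave 14 calls between High and Low, losing SULT1A2 in Atractylodis Rhizoma and Sibjeondaebo-tang and SULT2A1 in Atractylodis Rhizoma and Palmul-tang. Leaving out 1 library gave 15 to 18 calls between High and Low, 3 to 5 between Medium and Low, 18 to 20, 14 to 16 and 9 to 13 against vehicle at High, Medium and Low, 28 to 31 for pairwise differences, 6 for the joint test and 0 between the formulas. The longest transcript as length moved the median level to 9.86 CPM per kb for SULT1A1, 13.2 for SULT1A2, 35.1 for SULT1A3 and 1.24 for SULT1C2.

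With the replicate number as a replicate block there were 18 calls between High and Low, 20 and 16 at High and Medium against vehicle, and 31 pairwise differences. It added SULT1A1 at Medium Palmul-tang against vehicle (adjusted p = 0.0414) and SULT1A3 in Atractylodis Rhizoma minus Palmul-tang (adjusted p = 0.043), and changed no other member call. The block nested in the set code also called SULT2A1 between Medium and Low Glycyrrhizae Radix (log2 change -0.15, adjusted p = 0.0267). Deviations of same-numbered libraries correlated between -0.38 and 0.48. Outside Atractylodis Rhizoma, and the comparison of the formulas at High and at Low with 2 pairs each, the numbers are not shown to pair libraries. Crossing the numbers of High Palmul-tang, added after seeing that check, left 1 call.

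Depth limits SULT1B1 and SULT1E1, whose few counts per library give standard errors of 0.24 or more within a comparison.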
